A study of Mus musculus with 4 samples.

Results

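The genes described here are the 7 core enzymes and cofactors that write, maintain or remove DNA methylation: Dnmt1, Uhrf1, Dnmt3a, Dnmt3b, Tet1, Tet2 and Tet3. They were taken by symbol from the 32285 genes of the count tables, and all 7 were present. The choice was made with earlier results of these data known. Single-cell RNA-Seq had been performed on Lineage-, Sca-1+, cKit+ (LSK) bone marrow cells, a sorted fraction of the mouse marrow that holds long-term stem cells (LT-HSCs), short-term stem cells (ST-HSCs) and the multipotent progenitors MPP2, MPP3 and MPP4. The comparison addressed how loss of Sin3B, a scaffold protein of a histone deacetylase complex, alters such cells in undisturbed marrow and during recovery from 5-fluorouracil (5-FU), which kills dividing cells. Each condition was 1 library, in which antibody hashtags marked the genotype of the cells, though not every cell could be assigned. Levels were therefore compared within a condition and not between conditions, where treatment and library cannot be told apart.

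All mice were on the C57BL/6 background. The wild-type (Sin3B+/+) mice carried the Sin3B F/F alleles and no Cre is named for them, and the knockout (Sin3B-/-) mice carried the same alleles with Vav1-iCre, a Cre active in blood-forming cells from embryonic life onward. Deletion therefore preceded the sampling by the life of the mouse and covered the whole blood system, not stem cells alone. At homeostasis the mice were untreated males. For the stress library, mice of the same 2 genotypes were given 1 dose of 100 mg/kg 5-FU and the marrow was taken 9 days later. The sources used here do not give the age of the sequenced mice. Cells of 2 mice per genotype were pooled before hashtag staining, so each of the 4 combinations of genotype and condition is 1 pool. Which tag marks which genotype comes from the study's methods.

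After filtering, 10316 Sin3B+/+ and 4130 Sin3B-/- cells were kept at homeostasis, with medians of 6984 and 6621 unique molecular identifiers (UMIs) per cell. After 5-FU, 4843 Sin3B+/+ and 3297 Sin3B-/- cells were kept, with medians of 9295 and 10935 UMIs. The 2 libraries shared 76 cell barcodes. Sin3b itself was at 81.8 CPM (UMIs of the gene scaled to the same total for every pool) in Sin3B+/+ and 23.2 CPM in Sin3B-/- cells at homeostasis, and at 112.6 and 15.1 CPM after 5-FU. All 10 LT-HSC marker genes were detected in the clusters called LT-HSC-like, where their summed level was 3280 CPM in Sin3B+/+ and 3481 CPM in Sin3B-/- cells at homeostasis, against 1418 and 1450 CPM in the other cells. After 5-FU the same sums were 1997 and 2110 CPM against 678 CPM in the other cells of either genotype. The same markers gave these clusters their name, so higher sums there follow from the naming and are no separate check.

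DNA methylation in mammals sits mostly on the cytosine of CG dinucleotides. Dnmt3a and Dnmt3b place it on unmethylated DNA, while Dnmt1 copies it to the new strand behind the replication fork, to which Uhrf1 recruits it by recognising DNA methylated on a single strand. Tet1, Tet2 and Tet3 oxidise the methyl group, which opens the way to its loss. In the blood system Dnmt3a and Tet2 are best known because their loss alters self-renewal and differentiation of stem cells, and Dnmt1 because stem cells without it fail to persist.

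The positions below are those of the GENCODE M21 annotation of GRCm38 and not of the count tables, whose labels name another build. Dnmt1 (ENSMUSG00000004099) lies on chromosome 9 from 20907209 to 20959888 on the minus strand, and Uhrf1 (ENSMUSG00000001228) on chromosome 17 from 56303321 to 56323486 on the plus strand. Dnmt3a (ENSMUSG00000020661) lies on chromosome 12 from 3806007 to 3914443 and Dnmt3b (ENSMUSG00000027478) on chromosome 2 from 153649450 to 153687730, both on the plus strand. Tet1 (ENSMUSG00000047146) is found on chromosome 10 from 62804570 to 62908996, Tet2 (ENSMUSG00000040943) on chromosome 3 from 133463679 to 133545139 and Tet3 (ENSMUSG00000034832) on chromosome 6 from 83362373 to 83459084, all on the minus strand. Genes on the opposite strand overlap Dnmt3a (Dnmt3aos), Dnmt3b (Dnmt3bos), Tet2 (Gm42567) and Tet3 (B230319C09Rik). Genes on the same strand overlap Dnmt1 (Mir7081), Tet1 (Gm26479 and Gm48353) and Tet3 (5430434F05Rik and Mir6374). The sources used here do not say how counting treated overlaps, and whether reads of overlapping genes were mixed was not checked.

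Dnmt1 and Uhrf1 followed the cell cycle in the values below, and their promoter windows were searched for the letters bound by E2F factors, which drive genes of DNA replication. The letters were TTTGGCGC, TTTCGCGC, TTTCCCGC and TTTGCCGC on both strands, in windows of 300 bases around each RefSeq start on GRCm38.p6. A match was found in 1 of 3 windows of Dnmt1, in 1 of 2 windows of Uhrf1, and in none of the 3 windows of Dnmt3a or the 1 window each of Dnmt3b, Tet1, Tet2 and Tet3. Of all 32851 windows, 744 (2.26%) held a match. The matches of Dnmt1 and Uhrf1 are shown with 9 bases on each side, on the strand of the gene, with the matched letters in capitals:
Dnmt1, chr9:20952826-20952851, minus strand: tttccgcgcGCGCGAAAaagccgggg
Dnmt1, chr9:20952574-20952599, minus strand: ggggcagcgTTTGGCGCgggctgtgc
Uhrf1, chr17:56304119-56304144, plus strand: cgagtcgggTTTCGCGCgcccaggcg

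The first Dnmt1 match lies 219 bases before the start of its RefSeq entry, in an untranslated exon of transcript Dnmt1-201. The second lies 33 bases after that start, in an untranslated exon of other Dnmt1 transcripts, Dnmt1-203 among them. The Uhrf1 match lies 185 bases before the start, outside any exon. A match is a description of the letters. Binding was not measured, and the letters were chosen with the levels known.

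LT-HSC-like cells were set against all other LSK cells of the same genotype and condition, to see how each gene differs between stem cells and progenitors. The maintenance pair, Dnmt1 and Uhrf1, was lower in LT-HSC-like cells in all 4 pools, while the de novo enzymes and the Tet genes differed far less. At homeostasis 1484 Sin3B+/+ and 1442 Sin3B-/- cells were LT-HSC-like, and after 5-FU 1012 and 1076 were. The clusters were made from the same cells without the 7 genes, so the differences are described without a test, and intervals cover counting error only. Pooled levels do not separate fewer expressing cells from less RNA per cell, and the share of expressing cells is not given here.

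Dnmt1, which copies methylation after replication, was at 58.6 CPM in Sin3B+/+ and 65.3 CPM in Sin3B-/- LT-HSC-like cells at homeostasis, against 138.9 and 145.8 CPM in the other cells. The log2 difference was -1.24 (95% interval -1.37 to -1.12) in Sin3B+/+ and -1.16 (-1.28 to -1.04) in Sin3B-/- cells. After 5-FU it was at 59.2 and 70.9 CPM in LT-HSC-like cells against 148.5 and 176.4 CPM in the others, log2 differences of -1.32 (-1.46 to -1.19) and -1.31 (-1.43 to -1.20). In each of the 4 pools the LT-HSC-like level thus lay below that of the other cells.

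Uhrf1, the partner that brings Dnmt1 to newly made DNA, showed the widest gap of the 7. It was at 6.95 CPM in Sin3B+/+ and 7.89 CPM in Sin3B-/- LT-HSC-like cells at homeostasis, from 67 and 79 UMIs, against 44.9 and 49.4 CPM in the other cells. After 5-FU it was at 4.36 and 4.07 CPM in LT-HSC-like cells, from 37 and 38 UMIs, against 65.7 and 78.8 CPM. The log2 differences were -2.68 (-3.06 to -2.35) and -2.64 (-2.99 to -2.32) at homeostasis, and -3.90 (-4.42 to -3.45) and -4.26 (-4.78 to -3.81) after 5-FU. These levels rest on few UMIs, which the width of the intervals reflects.

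**Figure D1:**
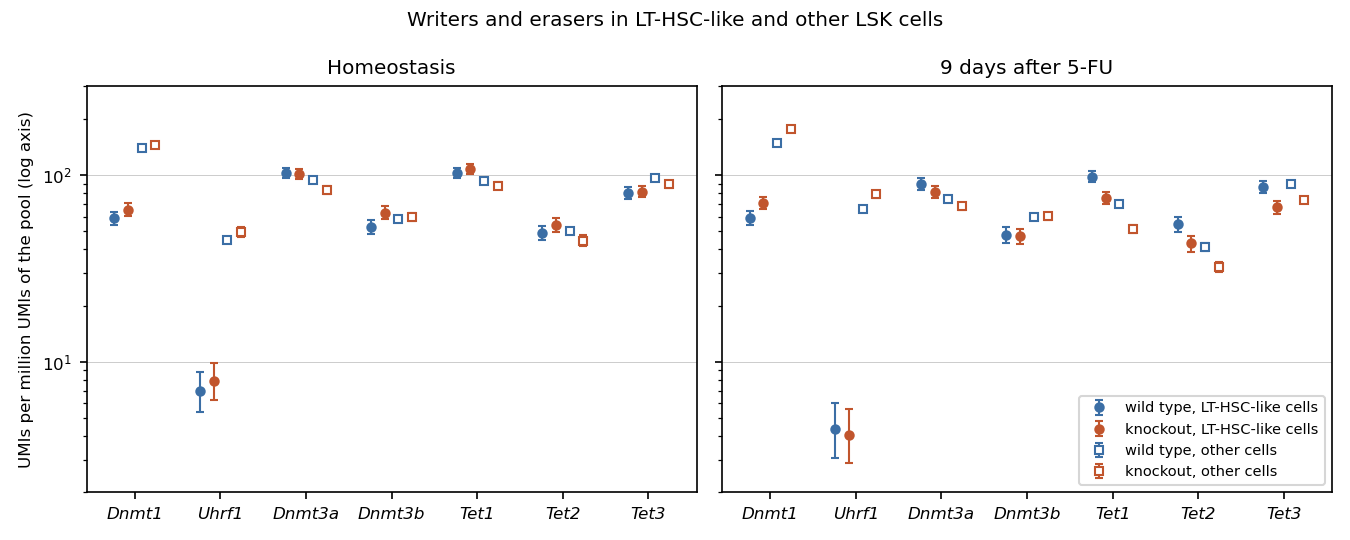
Level of each gene (CPM, log axis) in LT-HSC-like and other LSK cells, 1 point per pool of genotype and condition, with bars for the 95% counting interval of the pool. Dnmt1 and Uhrf1 sit lower in LT-HSC-like cells in all 4 pools, with Uhrf1 between 4.07 and 7.89 CPM there and between 44.9 and 78.8 CPM in the other cells.

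The de novo enzymes were less than 0.5 apart on the log2 scale between the classes in all 4 pools. Dnmt3a was at 102.5 and 101.0 CPM in Sin3B+/+ and Sin3B-/- LT-HSC-like cells and 94.6 and 83.4 CPM in the others at homeostasis, and at 89.7 and 81.1 against 74.6 and 68.2 CPM after 5-FU, differences of 0.12, 0.28, 0.27 and 0.25 on the log2 scale. Dnmt3b was at 53.0 and 62.9 against 58.4 and 59.7 CPM at homeostasis, where the log2 differences were -0.14 and 0.08 and the interval in Sin3B-/- cells included 0. After 5-FU it was at 48.0 and 46.9 CPM in LT-HSC-like cells against 59.6 and 60.3 CPM, differences of -0.31 (-0.46 to -0.16) and -0.36 (-0.51 to -0.21). Without the filter on cell quality these Dnmt3b differences were -0.69 and -0.68, past 0.5, and Dnmt3a in Sin3B+/+ cells after 5-FU was at -0.11 without the lineage filter.

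Among the demethylating enzymes, Tet1 was at 103.0 and 108.3 CPM in Sin3B+/+ and Sin3B-/- LT-HSC-like cells at homeostasis against 93.3 and 87.9 CPM in the others, log2 differences of 0.14 and 0.30. After 5-FU Tet1 was at 97.8 and 75.5 CPM in LT-HSC-like cells against 69.9 and 51.5 CPM, differences of 0.49 (0.37 to 0.60) and 0.55 (0.42 to 0.68). Tet2 was at 49.0 and 54.3 against 50.1 and 44.6 CPM at homeostasis and at 54.5 and 43.1 against 41.2 and 32.3 CPM after 5-FU, differences of -0.03, 0.28, 0.40 and 0.42. Tet3 was at 80.3 and 81.5 against 96.4 and 89.3 CPM at homeostasis and at 86.8 and 67.4 against 89.2 and 73.8 CPM after 5-FU, differences of -0.26, -0.13, -0.04 and -0.13. As shares of UMIs, Tet1 and Tet2 were thus on the higher side in LT-HSC-like cells after 5-FU. The median over all genes also lay above 0 there, at 0.14 in Sin3B+/+ and 0.17 in Sin3B-/- cells. As a share, Tet2 in Sin3B+/+ cells was at -0.01 without the lineage filter, so its direction there depends on that filter. By the UMIs per cell given further below, Sin3B-/- LT-HSC-like cells held fewer of both genes than the other cells. In Sin3B+/+ LT-HSC-like cells Tet1 was slightly higher per cell and Tet2 slightly lower.

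Counted as 0.5 or more apart on the log2 scale, 2 of the 7 genes differed in Sin3B+/+ cells at homeostasis, where 30.4% of all genes with at least 50 UMIs did so, and 2 of 7 in Sin3B-/- cells, where 28.3% did. After 5-FU the counts were 2 of 7 in Sin3B+/+ cells beside 32.8% of all genes and 3 of 7 in Sin3B-/- cells beside 40.7%, the third gene being Tet1. These shares are near those of all genes, so the counts say nothing particular about the 7. All 7 genes passed the minimum of 50 UMIs in each of these comparisons.

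LT-HSC-like and other cells differed widely in cell cycle phase, called from lists of S phase and G2/M genes that did not hold the 7 genes. Of LT-HSC-like cells, 95.3% of Sin3B+/+ and 95.6% of Sin3B-/- cells were called G1 at homeostasis, and 89.3% and 90.0% after 5-FU. Of the other cells, 59.0% and 64.5% were called G1 at homeostasis and 52.5% and 45.8% after 5-FU. The comparison was therefore repeated in G1 cells alone. There Dnmt1 differed by -0.29 (-0.44 to -0.15), -0.23 (-0.38 to -0.07), -0.22 (-0.39 to -0.06) and -0.05 (-0.21 to 0.10) on the log2 scale in Sin3B+/+ and Sin3B-/- cells at homeostasis and then after 5-FU. All 4 values are much closer to 0 than the values over all phases, and the last interval includes 0.

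Among G1 cells, Uhrf1 was at 6.08 against 9.48 CPM in Sin3B+/+ and 6.59 against 8.28 CPM in Sin3B-/- cells at homeostasis, log2 differences of -0.63 (-1.09 to -0.22) and -0.33 (-0.82 to 0.15). After 5-FU it was at 3.27 against 8.91 CPM and 3.59 against 8.22 CPM, differences of -1.42 (-2.13 to -0.82) and -1.18 (-1.84 to -0.59). The differences of Tet1 in G1 cells were -0.09, 0.05, 0.16 and 0.04 in the same order. Those of Tet2 were -0.16, 0.17, 0.21 and 0.13, those of Tet3 -0.29, -0.16, -0.10 and -0.30, those of Dnmt3a -0.03, 0.18, 0.14 and 0.06 and those of Dnmt3b -0.16, 0.07, -0.30 and -0.41. Uhrf1 alone was 0.5 or more apart, in 1 of 7 genes for Sin3B+/+ cells at homeostasis beside 21.5% of all genes, in 0 of 7 for Sin3B-/- cells beside 19.4%, and after 5-FU in 1 of 7 beside 17.3% and 1 of 7 beside 20%.

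Cycling cells were then compared with G1 cells directly, over all kept cells of a pool. Uhrf1 and Dnmt1 were higher in S phase in all 4 pools, Tet1 and Tet2 had a lower share of the UMIs, and Dnmt3a, Dnmt3b and Tet3 differed little. As a check of the phase calls, 8 cycle genes outside the lists summed to between 632 and 803 CPM in G1 cells of the 4 pools, 3438 to 3930 CPM in S phase cells and 7655 to 10631 CPM in G2/M cells. The sum was higher in G2/M than in S phase cells. It thus sets cycling cells apart from G1 cells but does not check S phase calls against G2/M calls. Phases were called from the same cells, so no test was made.

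Uhrf1 was at 8.83 CPM in G1 and 119 CPM in S phase cells of Sin3B+/+ mice at homeostasis, and at 7.54 and 137.6 CPM in Sin3B-/- cells. After 5-FU it was at 7.25 and 149.9 CPM in Sin3B+/+ and 6.23 and 151.3 CPM in Sin3B-/- cells. The log2 differences were 3.75 (3.6 to 3.91), 4.19 (3.94 to 4.45), 4.37 (4.15 to 4.6) and 4.6 (4.34 to 4.88). In G2/M cells Uhrf1 lay between both, at 42, 48.0, 47.0 and 57.7 CPM in the same order of pools. No S phase or G2/M level came near a G1 level.

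Dnmt1 was at 66.1 CPM in G1 and 244.8 CPM in S phase cells of Sin3B+/+ mice at homeostasis, and at 69.0 and 254.3 CPM in Sin3B-/- cells. After 5-FU the values were 64.4 and 237.6 CPM in Sin3B+/+ and 71.7 and 246.6 CPM in Sin3B-/- cells, and the 4 log2 differences lay between 1.78 and 1.89. Its G2/M levels of 172.6, 195.2, 160.8 and 190.6 CPM stood between those of G1 and S phase cells. Counted per cell, Dnmt1 was at 0.470 UMIs in G1 and 2.49 in S phase in Sin3B+/+ cells at homeostasis and at 0.733 and 4.88 in Sin3B-/- cells after 5-FU.

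**Figure D2:**
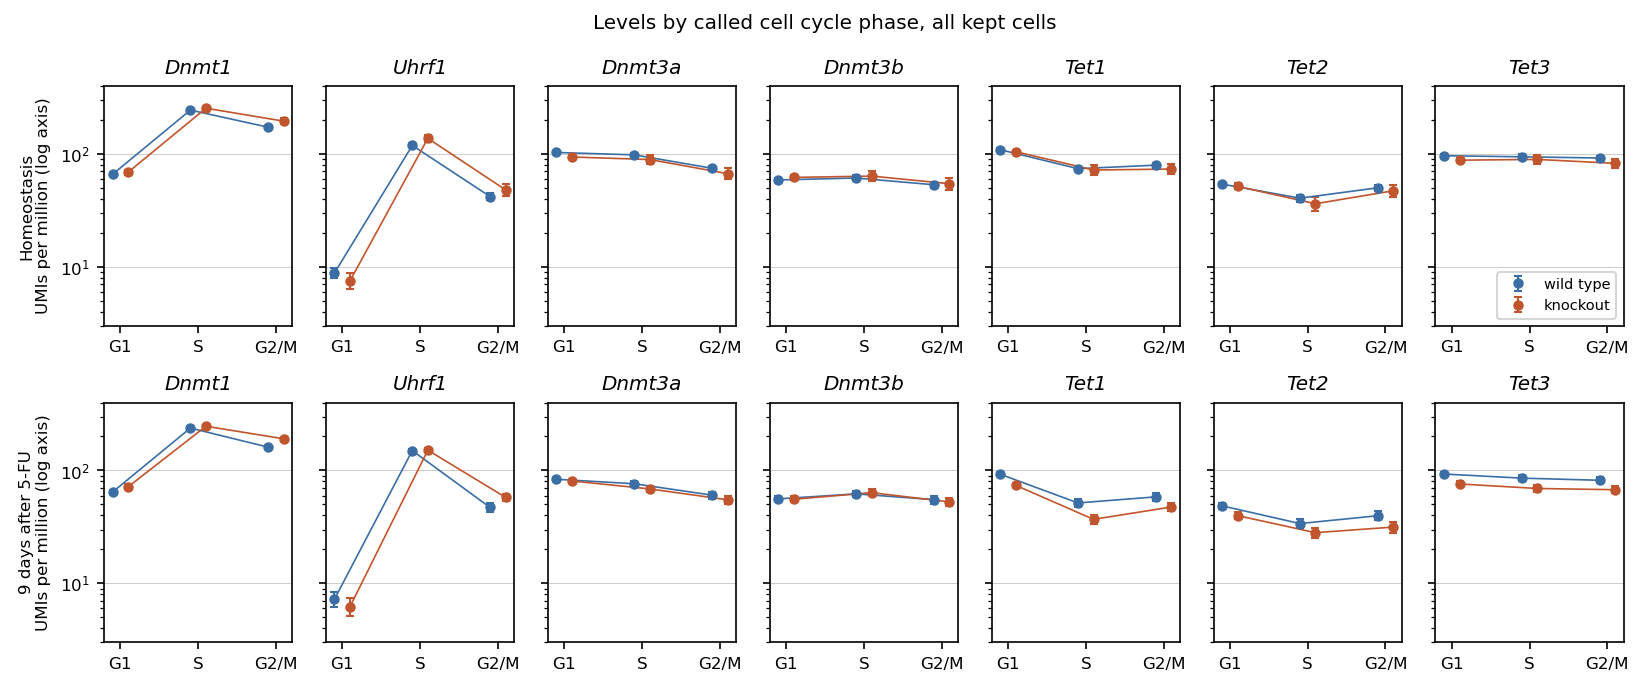
Level of each gene (CPM, log axis) in G1, S and G2/M cells of each pool of genotype and condition, all kept cells, with bars for the 95% counting interval. Uhrf1 and Dnmt1 peak in S phase in all 4 pools, Uhrf1 at 119 to 151.3 CPM, and Tet1 is highest in G1.

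Tet1 was lower in S phase than in G1 cells, at 74.1 against 109.1 CPM in Sin3B+/+ and 72.1 against 104.7 CPM in Sin3B-/- cells at homeostasis. After 5-FU it was at 51.6 against 92.6 CPM and 36.9 against 73.9 CPM. The log2 differences were -0.56 (-0.65 to -0.47), -0.54 (-0.70 to -0.38), -0.84 (-0.97 to -0.72) and -1.0 (-1.15 to -0.85), beside medians over all genes of -0.13, -0.12, -0.18 and -0.21. CPM are shares of the RNA counted, and S phase cells held more UMIs: per cell, Tet1 was at 0.776 UMIs in G1 and 0.753 in S phase in Sin3B+/+ cells at homeostasis, 0.739 and 0.766 in Sin3B-/- cells, and after 5-FU 0.887 and 0.823, and 0.756 and 0.731. The number of Tet1 molecules counted per cell therefore hardly differed between G1 and S phase.

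Tet2 showed the same direction, with log2 differences of -0.41 (-0.53 to -0.29) and -0.51 (-0.74 to -0.29) in Sin3B+/+ and Sin3B-/- cells at homeostasis and -0.52 (-0.68 to -0.37) and -0.50 (-0.68 to -0.32) after 5-FU. Per cell it was higher in S phase, from 0.384 UMIs in G1 to 0.413 in Sin3B+/+ cells at homeostasis and from 0.407 to 0.557 in Sin3B-/- cells after 5-FU. Tet3 differed by -0.03, 0.02, -0.12 and -0.13 in CPM, Dnmt3a by -0.07, -0.07, -0.13 and -0.23 and Dnmt3b by 0.06, 0.04, 0.15 and 0.19. In G2/M against G1 cells, the log2 differences in CPM were -0.46, -0.49, -0.47 and -0.55 for Dnmt3a and -0.46, -0.51, -0.67 and -0.64 for Tet1. Per cell, Dnmt3a was higher in G2/M, at 0.829 UMIs against 0.733 in G1 in Sin3B+/+ cells at homeostasis and at 1.02 against 0.826 in Sin3B-/- cells after 5-FU.

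Counted as 0.5 or more apart between S phase and G1, 3 of 7 genes differed in Sin3B+/+ cells at homeostasis beside 28.4% of all genes, and 4 of 7 in Sin3B-/- cells beside 31.6%. After 5-FU, 4 of 7 differed in Sin3B+/+ cells beside 35.9% and 3 of 7 in Sin3B-/- cells beside 44.2%. Dnmt1, Uhrf1 and Tet1 were among them in each pool, and Tet2, close to 0.5, in some. Among LT-HSC-like cells, 24 to 32 per pool were called S phase, and the 8 check genes reached only 951, 935, 826 and 442 CPM in them against 568, 532, 681 and 527 CPM in LT-HSC-like G1 cells. These calls are thus not read as cycling, although Uhrf1 differed by 2.89, 3.23, 3.41 and 2.81 on the log2 scale between them.

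Across the 14 clusters of each library, Uhrf1 had the widest span. At homeostasis it ranged from 6.80 CPM in cluster 5, an LT-HSC-like cluster, to 134.8 CPM in cluster 6, in which 74.7% of cells were called S phase and whose leading genes included Elane, Pclaf and Rrm2. After 5-FU it ranged from 3.33 CPM in the LT-HSC-like cluster 4 to 225.7 CPM in cluster 14, of 20 cells and 50 Uhrf1 UMIs, led by Vpreb3, Ebf1 and Rag1. The next highest after 5-FU was cluster 6, at 175.5 CPM with 79.1% of cells called S phase. Dnmt1 ran from 57.0 CPM in cluster 5 to 278.7 CPM in cluster 6 at homeostasis and from 59.1 CPM in cluster 4 to 285.1 CPM in cluster 9 after 5-FU. Cluster 9 was megakaryocyte-erythroid primed-like, with 31.2% of cells called S phase and 68.8% G2/M. Its leading genes included Ube2c and Ckap2l of mitosis. Uhrf1 ranked lowest in an LT-HSC-like cluster in both libraries, and so did Dnmt1.

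A G2/M call did not always come with high Uhrf1. Cluster 12 at homeostasis, with 172 cells of which 82.4% were called G2/M, held Uhrf1 at 8.39 CPM and Dnmt1 at 68.0 CPM, whereas cluster 10, with 98.8% called G2/M, held them at 32.3 and 169.6 CPM. The other 5 genes spanned 1.56-fold to 3.18-fold between their lowest and highest cluster at homeostasis. For Tet1, Tet2 and Dnmt3b the lowest was cluster 14, of 20 cells, from 6, 4 and 6 UMIs, so the low end of their spans is imprecise. Lymphoid primed-like cluster 1 was highest for Tet1 at 116 CPM, Tet2 at 60.3 CPM and Tet3 at 110.6 CPM. After 5-FU their span was 2.43-fold to 4.83-fold, and the highest cluster for all 5 was cluster 13, of 213 cells with a median of 1790 UMIs, a far lower depth than the rest of that library.

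**Figure D3:**
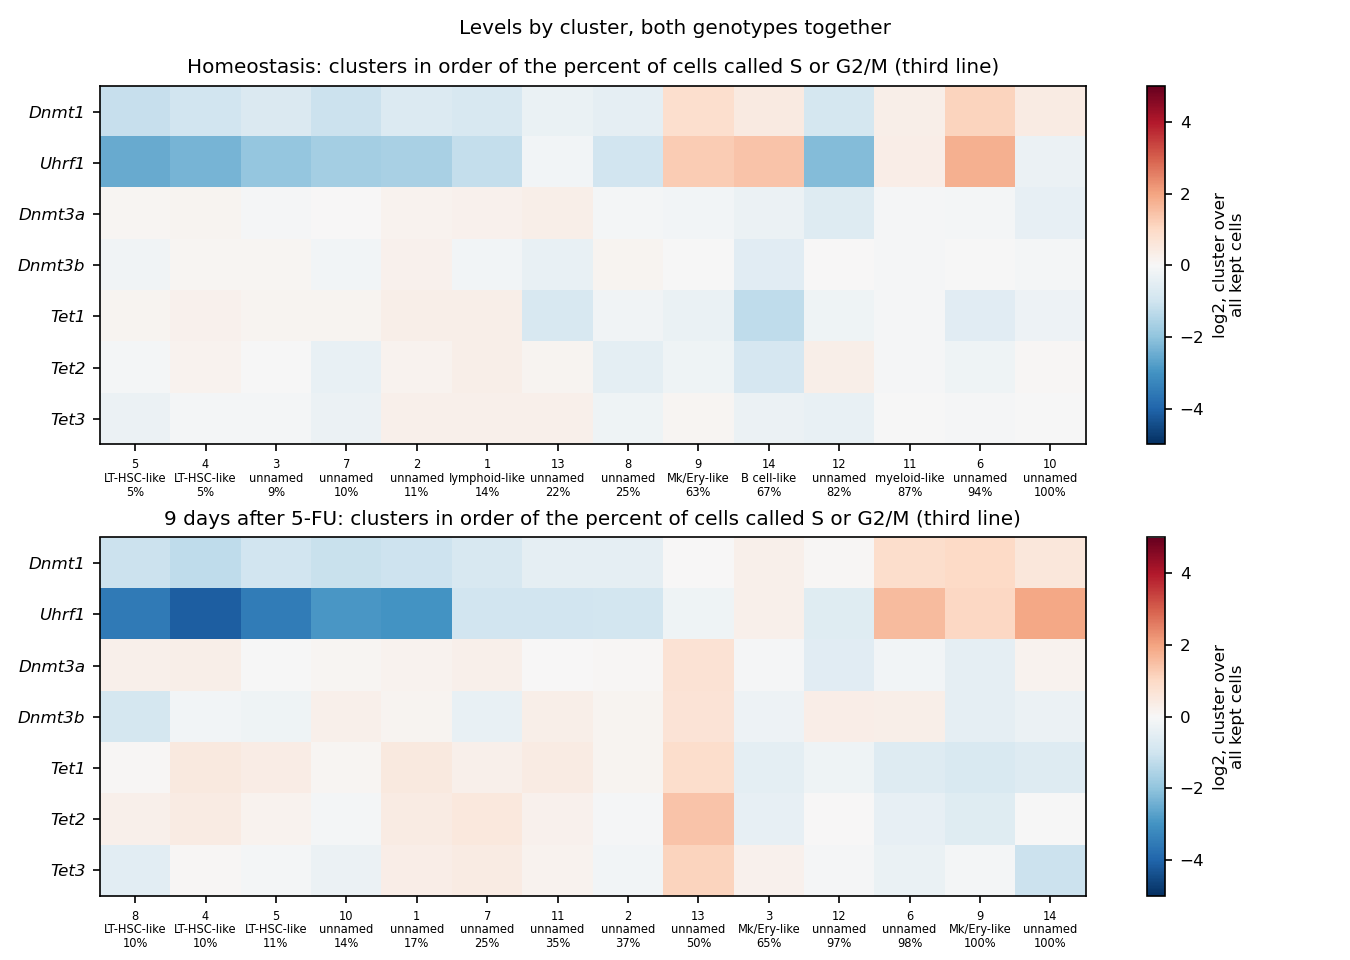
Heat map with the 7 genes as rows and the 14 clusters of each library as columns, ordered by the percent of cells called S or G2/M, as log2 of the level in the cluster over that in all kept cells of the library (both genotypes together). Uhrf1 and Dnmt1 mostly run from low on the left to high on the right, with exceptions such as cluster 12 at homeostasis. Cluster 10, at the right end there, has Uhrf1 below its level in all kept cells. Uhrf1 is at 3.33 to 7.91 CPM in the LT-HSC-like clusters. Cells without a phase call do not enter the percent.

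Cells were also assigned to the subset whose signature, as listed by the study and with the 7 genes left out, scored highest. Uhrf1 was at 12.8 CPM in LT-HSC, 28.1 in ST-HSC, 73.4 in MPP2, 53.9 in MPP3 and 25.9 CPM in MPP4 cells at homeostasis, both genotypes together. After 5-FU the same levels were 12.7, 31.9, 109.6, 75.6 and 32.6 CPM. Dnmt1 was likewise highest in MPP2, next in MPP3 and lowest in LT-HSC cells, at 75.3, 100.5, 213.5, 143.6 and 93.8 CPM at homeostasis and 76.2, 96.2, 237.9, 153.9 and 93.2 CPM after 5-FU. Tet1 was lowest in MPP2 at 74.1 CPM at homeostasis and 45.0 CPM after 5-FU and highest in MPP4 at 110.1 and 84.3 CPM. In LT-HSC cells it was at 98.9 and 75.1 CPM, between those levels, so its order was not the full reverse of theirs. In Sin3B-/- cells alone at homeostasis, Tet1 was at 108.2 CPM in ST-HSC and 107.4 CPM in MPP4 cells, with overlapping intervals. ST-HSC and MPP4 cells were close to each other for Uhrf1 and Dnmt1 in both libraries.

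The genes whose levels went most closely with each of the 7 were sought over 24 pools of condition, genotype, stem or other class and phase, among 11237 genes. These correlations describe pools that share a library and depth, the smallest of 24 cells, and carry no test. Closest to Dnmt1 were Rbl1, a retinoblastoma-family protein (Pearson r = 0.969), Chaf1a, a histone chaperone subunit of replicating chromatin (0.968), and Mcm3 of the replicative helicase (0.964). Closest to Uhrf1 were Usp1 (0.973), Mcm5 (0.971) and Tyms (0.968), all 3 of which were in the S phase list that defined the pools. For Dnmt3a they were Echdc1 (0.873), Gm9856 (0.861) and C1qtnf4 (0.847), and for Dnmt3b Fam189b (0.868), Mvb12b (0.846) and Adrm1 (0.833). For Tet1 they were Peli1 (0.905), Gstm7 (0.903) and Smad7 (0.896), for Tet2 Zfp652 (0.920), Ythdc1 (0.915) and Parp9 (0.912), and for Tet3 Rab31 (0.912), Prdm15 (0.861) and Usp11 (0.855). Among the 7 themselves, Dnmt1 and Uhrf1 were closest (0.955), Tet1 ran against Dnmt1 (-0.81) and Uhrf1 (-0.80), and Tet1 went with Tet2 (0.636).

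Genotypes were compared within each library. After 5-FU, Tet1, Tet2 and Tet3 took a smaller share of the UMIs in Sin3B-/- than in Sin3B+/+ cells, in both LT-HSC-like and other cells, whereas Dnmt1 took a larger one. At homeostasis the differences were smaller and mixed. With 1 pool per genotype in a library there is no test of these ratios, and their intervals cover counting error only, not the spread between mice.

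Over all kept cells after 5-FU, Tet1 was at 74.5 CPM in Sin3B+/+ and 56.7 CPM in Sin3B-/- cells, a log2 ratio of Sin3B-/- over Sin3B+/+ of -0.39 (-0.47 to -0.32). Tet2 was at 43.4 and 34.6 CPM (-0.33, -0.42 to -0.23). Tet3 was at 88.8 and 72.4 CPM (-0.29, -0.36 to -0.23). In LT-HSC-like cells alone the ratios were -0.37 (-0.52 to -0.23) for Tet1, -0.34 (-0.54 to -0.14) for Tet2 and -0.36 (-0.52 to -0.21) for Tet3, and in the other cells -0.44 (-0.53 to -0.36), -0.35 (-0.46 to -0.25) and -0.27 (-0.35 to -0.20). In all kept G1 cells they were -0.33, -0.29 and -0.29, and in all of these sets the median over all genes was within 0.05 of 0. Without the lineage filter Tet2 in LT-HSC-like cells was at -0.05.

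These are shares, and Sin3B-/- cells held more UMIs after 5-FU. Per cell, Tet1 was at 0.799 UMIs in Sin3B+/+ and 0.792 in Sin3B-/- other cells, Tet2 at 0.471 and 0.496 and Tet3 at 1.02 and 1.13. In that class the number of molecules counted per cell thus hardly differed for Tet1 and was not lower for Tet2 and Tet3. In LT-HSC-like cells it was lower for each, at 0.821 and 0.655 for Tet1, 0.458 and 0.374 for Tet2 and 0.728 and 0.585 for Tet3.

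At homeostasis the ratios of the same 3 genes lay nearer to 0 in each of these sets, though not under every alternative setting. Tet1 was at 94.4 and 94.3 CPM over all kept cells (0.00, -0.06 to 0.06), Tet2 at 49.9 and 47.7 CPM (-0.07, -0.15 to 0.02) and Tet3 at 94.6 and 86.9 CPM (-0.12, -0.18 to -0.06). In LT-HSC-like cells their ratios were 0.07, 0.15 and 0.02, with intervals that included 0, and in the other cells -0.09, -0.17 and -0.11, with intervals below 0. The last 3 turned to 0.10, 0.12 and 0.04 when 80% of a cell's hashtag UMIs had to be of 1 tag, a rule that left 881 Sin3B-/- cells at homeostasis. The same rule put Tet3 in LT-HSC-like cells at -0.50, and without the lineage filter Tet1 and Tet2 were at -0.14 and -0.10 there. Whether the ratios differ between the libraries was not tested.

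Dnmt1 was at 134.0 CPM in Sin3B+/+ and 153.7 CPM in Sin3B-/- cells after 5-FU (0.20, 0.15 to 0.25). Its ratios were 0.26 (0.09 to 0.43) in LT-HSC-like and 0.25 (0.20 to 0.30) in the other cells. The LT-HSC-like ratio was 0.08 when cells were classed by signature in place of clusters. Uhrf1 was at 55.8 and 62.8 CPM (0.17, 0.09 to 0.25), with 0.26 (0.19 to 0.34) in the other cells and -0.10 (-0.79 to 0.60) in LT-HSC-like cells, where its few UMIs leave the direction unresolved. In G1 cells alone after 5-FU, Dnmt1 had a ratio of 0.15 (0.05 to 0.26), while Uhrf1 was at -0.22 (-0.56 to 0.12). Dnmt1 was thus on the higher side in each of these sets, and Uhrf1 was not. Within phases the differences in the other cells were mostly smaller. There Dnmt1 was at 0.12 (-0.02 to 0.25) in G1, 0.06 (-0.01 to 0.13) in S phase and 0.25 (0.16 to 0.34) in G2/M cells. Uhrf1 was at -0.11 (-0.50 to 0.27), 0.02 (-0.07 to 0.11) and 0.31 (0.14 to 0.48) in the same phases. For both genes the G1 and S phase intervals include 0.

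At homeostasis, Dnmt1 was at 129.7 CPM in Sin3B+/+ and 120.8 CPM in Sin3B-/- cells over all kept cells (-0.10, -0.16 to -0.05), but at 0.16 (-0.01 to 0.32) in LT-HSC-like and 0.07 (0.01 to 0.13) in the other cells. Uhrf1 was at 40.6 and 36.5 CPM (-0.15, -0.25 to -0.06), but at 0.18 (-0.30 to 0.68) and 0.14 (0.04 to 0.24) within the classes. The sign of both genes over all kept cells was thus opposite to that within each class, but not under every setting. With the 80% hashtag rule Dnmt1 was at -0.06 in LT-HSC-like and -0.05 in the other cells and Uhrf1 at -0.70 in LT-HSC-like cells, and in G1 cells alone Uhrf1 in the other cells was at -0.19. LT-HSC-like cells made up 14.4% of Sin3B+/+ and 34.9% of Sin3B-/- cells in that library. When both genotypes were weighted to the same shares of class and phase, the ratios were 0.13 for Dnmt1 and 0.20 for Uhrf1.

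**Figure D4:**
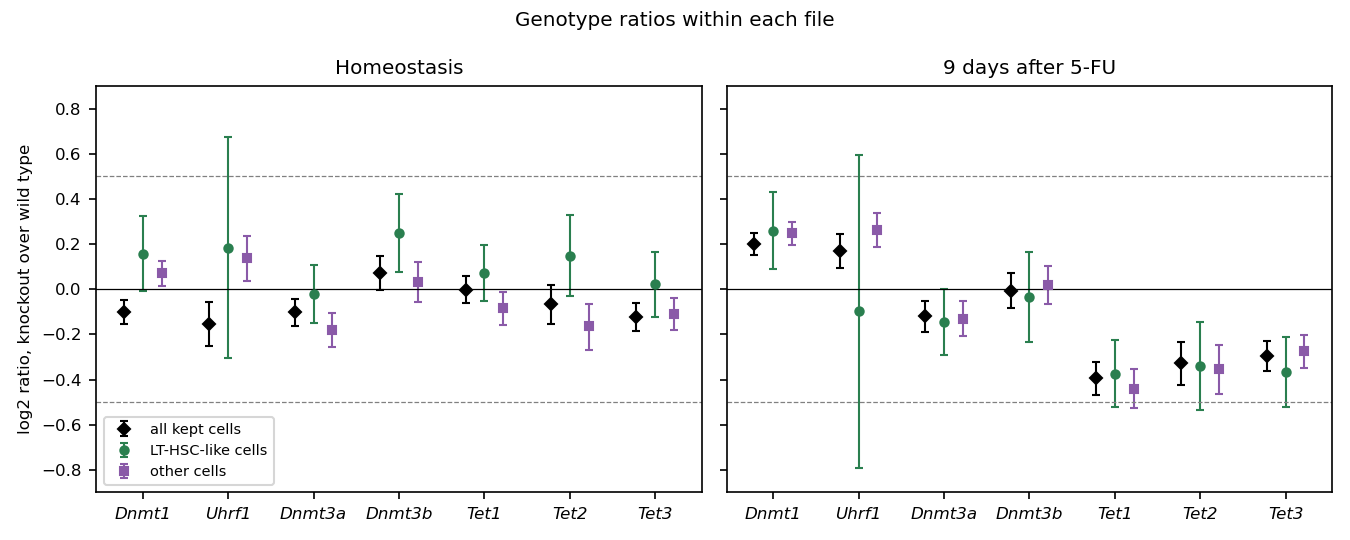
Log2 ratio of Sin3B-/- over Sin3B+/+ for each gene in all kept, LT-HSC-like and other cells of each library, with bars for the 95% counting interval and no replicate error. After 5-FU the 3 Tet genes lie between -0.44 and -0.27 in all 3 sets of cells, and none of the 7 genes reaches 0.5 in either direction.

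Dnmt3a was at 95.5 and 88.9 CPM over all kept cells at homeostasis (-0.10, -0.17 to -0.04) and at 77.1 and 70.9 CPM after 5-FU (-0.12, -0.19 to -0.05). Dnmt3b was at 57.8 and 60.7 CPM (0.07, -0.01 to 0.15) and at 57.7 and 57.4 CPM (-0.01, -0.08 to 0.07), with a ratio of 0.25 (0.08 to 0.42) in LT-HSC-like cells at homeostasis and -0.03 (-0.23 to 0.16) after 5-FU. Over all kept cells Dnmt3a thus took a slightly smaller share in Sin3B-/- cells in both libraries, although at homeostasis it was at 0.07 with the 80% hashtag rule. In LT-HSC-like cells its ratios were -0.02 (-0.15 to 0.11) at homeostasis and -0.15 (-0.29 to 0.001) after 5-FU. The latter was 0.15 without the lineage filter. Sin3B-/- cells held more UMIs after 5-FU, so a smaller share there need not mean fewer molecules per cell. The interval of Dnmt3b over all kept cells included 0 in both libraries.

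With all phases together, none of the 7 genes was 0.5 or more apart between genotypes. At homeostasis this held for 0 of 7 beside 13.4% of all genes over all kept cells, 0 of 7 beside 9.16% in LT-HSC-like cells and 0 of 7 beside 12.7% in the others. After 5-FU it held for 0 of 7 beside 11.5%, 0 of 7 beside 9.16% and 0 of 7 beside 12.4% in the same sets. Within a phase, Tet1 reached -0.51 (-0.68 to -0.34) in S phase cells of the other class after 5-FU, and 2 values of genes with at least 50 UMIs passed 0.5 in LT-HSC-like cells. These were Dnmt3a in G2/M cells after 5-FU, at -0.79 (-1.46 to -0.16) from 34 Sin3B-/- and 57 Sin3B+/+ UMIs, and Tet1 in S phase cells at homeostasis, at 0.70 (-0.08 to 1.52) from 35 and 24 UMIs. Of all genes with at least 50 UMIs, 10.2%, 15.3% and 23.5% were as far apart in these 3 comparisons. At homeostasis the LT-HSC-like cells of the genotypes came from different clusters, cluster 5 holding 13% of Sin3B+/+ and 1.28% of Sin3B-/- cells and cluster 4 holding 1.34% and 33.6%. After 5-FU they came from clusters 4, 5 and 8, and cluster 8 held 0.929% of Sin3B+/+ and 11% of Sin3B-/- cells. The other cells were also spread differently over clusters by genotype. At homeostasis cluster 1, where the 3 Tet genes were highest, held 17.3% of Sin3B+/+ and 2.25% of Sin3B-/- cells, cluster 2 held 16.7% and 0.823%, and cluster 3 held 1.34% and 37.5%. After 5-FU cluster 2 held 16.7% and 4.03%, cluster 10 held 1.05% and 10.3%, and cluster 11 held 7.27% and 0.637%. The part of these clusters in the ratios was not tested.

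Over the 4 pools together, edgeR's quasi-likelihood test with condition as a covariate (1 residual degree of freedom, Benjamini-Hochberg over all genes) called 0 of the 7 genes at an adjusted p under 0.05 in any set of cells. That degree of freedom holds the difference in genotype change between conditions, so a change in 1 condition alone weighs against a call. Over all kept cells 1.30% of genes were called. Of the 7 genes, 1 had an unadjusted p under 0.05, beside 13.8% of all genes. It was Tet3, with a log2 change of -0.20 and an adjusted p in edgeR of 0.358. In LT-HSC-like cells 1.09% of genes were called, none of the 7 had an unadjusted p under 0.05, as 10.8% of all genes had, and the smallest adjusted p in edgeR was 0.495, for Dnmt1 with a change of 0.20. In the other cells 2.02% of genes were called and 3 of the 7 had an unadjusted p under 0.05, beside 14.9% of all genes, namely Tet2 (-0.24, adjusted p = 0.257), Tet1 (-0.24, adjusted p = 0.282) and Uhrf1 (0.22, adjusted p = 0.295) in edgeR. DESeq2 on the same pools called 0 of the 7 over all kept and in other cells, and 0 of the 6 with an adjusted p in LT-HSC-like cells, where it gave none for Uhrf1, and 0 had an unadjusted p under 0.05. Sin3b fell by 2.34 on the log2 scale over all kept cells (edgeR adjusted p = 0.0128).

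Markers of cells that the sort should lack also differed in level between genotypes. Mature neutrophil markers summed to 11 CPM in Sin3B+/+ and 51.8 CPM in Sin3B-/- cells at homeostasis, and to 5.55 and 4.32 CPM after 5-FU. At homeostasis S100a8 (5.28 and 32.7 CPM) and S100a9 (3.98 and 17.2 CPM) made the gap, while Ngp and Camp were at 0.428 and 0.466, and 1.34 and 1.46 CPM. Those of T and NK cells summed to 105.2 and 71.4 CPM at homeostasis and 174.3 and 110.0 CPM after 5-FU, and those of erythroid cells to 46.6 and 48.6, and 59.7 and 93.3 CPM. Cd3e, which defines T cells, was at 0 UMIs in all 4 pools and Ly6g, which defines neutrophils, at 0 or 1, so 3 of 4 T and NK cell markers and 4 or 5 of 5 neutrophil markers were detected. Nkg7 alone gave 2241 to 9024 of the 2298 to 9114 UMIs of the T and NK cell list. Small clusters of such cells may still have been kept. At homeostasis cluster 13, of 61 cells, was led by the T cell receptor genes Trbc1 and Tcrg-C1, and cluster 14, of 20 cells, was B cell-like. B cell, mast cell and basophil, and endothelial and stromal markers summed to between 1.72 and 41.9 CPM in the 4 pools. The part of such cells in the ratios above was not tested.

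RNA free in the droplets was measured at homeostasis from 2193763 barcodes of 1 to 100 UMIs. Uhrf1 was at 38.6 CPM there and at 39.5 CPM in the kept cells, so its 6.95 to 7.89 CPM in LT-HSC-like cells lay below the free RNA. Dnmt1 was at 106 CPM in free RNA against 127.2 CPM in cells, and its 58.6 and 65.3 CPM in LT-HSC-like cells also lay below the free RNA. Tet2 was at 47.8 CPM in free RNA, near its 49.0 and 54.3 CPM in LT-HSC-like cells. Tet3 was at 76.8 CPM in free RNA, near its 80.3 and 81.5 CPM there. In free RNA against kept cells, Tet1 was at 56.1 against 94.4 CPM, Dnmt3a at 72.9 against 93.7 and Dnmt3b at 44.7 against 58.6 CPM. No cell type that should lack these genes was available, so low levels are not read as expression. The 5-FU table holds called cells alone and gives no such value.

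Beyond the 7, a list of 38 other genes of DNA methylation was followed, of which 35 reached 50 UMIs. All 35 were tested between genotypes by edgeR, and 0 were called higher and 0 lower in any set of cells, beside the 1.30%, 1.09% and 2.02% of all genes given above, shares at which few or none of 35 would be called. The smallest adjusted p in edgeR for the list was 0.222 over all kept cells, 0.239 in LT-HSC-like and 0.119 in other cells. No gene of the list was 0.5 or more apart between genotypes in the same direction in both libraries.

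Between LT-HSC-like and other cells, 4 of the 35 were 0.5 or more higher and 7 lower in Sin3B+/+ cells at homeostasis, and 4 and 6 in Sin3B-/- cells. After 5-FU the counts were 6 and 8, and 9 and 10. In all, 11, 10, 14 and 19 of the 35 were apart in these pools, beside 30.4%, 28.3%, 32.8% and 40.7% of all genes. As shares of the list these are 31.4%, 28.6%, 40% and 54.3%. Hells, the chromatin remodeller needed for methylation of packed DNA, was lower in LT-HSC-like cells by a log2 difference of -2.08 at homeostasis and -2.66 after 5-FU in Sin3B+/+, and -2.36 and -3.33 in Sin3B-/- cells. Its activator Cdca7 was at -0.84 and -1.34, and -1.01 and -1.55, and the replication clamp Pcna at -1.22 and -1.21, and -1.41 and -1.65. These 3 genes belong to the S phase list that called the phases. Outside that list, the repair endonuclease Apex1 was lower, at -0.57 and -0.89, and -0.62 and -1.07.

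On the higher side in LT-HSC-like cells were the readers of methylated DNA Zbtb4, at 0.91 and 1.04 in Sin3B+/+ and 0.94 and 1.14 in Sin3B-/- cells, and Zbtb38, at 0.60 and 0.63, and 0.68 and 0.78. Idh2, which makes the 2-oxoglutarate that Tet enzymes need, was lower in Sin3B+/+ LT-HSC-like cells by -0.58 and -0.53. Ahcy, which clears the by-product of methylation, was lower in Sin3B-/- LT-HSC-like cells by -0.79 and -1.40.

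Between S phase and G1 cells, 8 of the 35 were higher and 4 lower in Sin3B+/+ cells at homeostasis and 10 and 9 in Sin3B-/- cells, and after 5-FU 7 and 9, and 9 and 11. These make 34.3%, 54.3%, 45.7% and 57.1% of the list, beside 28.4%, 31.6%, 35.9% and 44.2% of all genes, and the list holds genes of the S phase list itself. Hells was higher in S phase by 3.37 and 3.64 in Sin3B+/+ and 3.76 and 3.83 in Sin3B-/- cells, with Cdca7 and Pcna also higher by 1.71 to 2.42. Ahcy was higher by 1.24 and 1.59, and 1.58 and 1.67, Apex1 by 0.64 and 0.82, and 0.91 and 1.08, and Idh3a by 0.77 and 0.90, and 0.75 and 1.09. Mbd4, a glycosylase that removes mismatched thymine, was higher in Sin3B+/+ cells by 0.81 and 0.70, and Cdca7l and Xrcc1 in Sin3B-/- cells by 0.67 and 0.56, and 0.52 and 0.76.

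As shares of UMIs, the lower side in S phase held Ogt, a sugar transferase that binds Tet proteins. S phase and G2/M cells held more UMIs than G1 cells, so a lower share need not mean fewer molecules per cell. Ogt was at -0.54 and -0.84 in Sin3B+/+ and -0.53 and -1.04 in Sin3B-/- cells. Zbtb4 was at -0.78 and -1.03, and -0.91 and -1.43, and Idh1 at -0.74 and -0.78, and -0.96 and -1.0. Zbtb33 was lower in Sin3B+/+ cells at -0.54 and -0.58. In Sin3B-/- cells Zbtb38, Neil1, Gadd45a and D2hgdh were lower by at least 0.5 in both libraries, and whether genotypes differ in this was not tested. In G2/M against G1 cells, Hells, Pcna and Ahcy were again higher and Ogt and Zbtb4 lower in both genotypes and both libraries.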

How the data were processed

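The deposited values were raw counts of UMIs per gene and barcode in 2 matrices of 32285 genes and 2 hashtags, made by the authors with Cell Ranger, per the file headers version 4 for homeostasis and 6.0.1 for 5-FU. The submitters' processing notes also name Seurat, DESeq2 and mm9, and no source used here gives aligner settings. The homeostasis matrix listed 6794880 barcodes, of which 23931 with at least 2921 UMIs were taken as cells, and the 5-FU matrix 12753 called cells. Gene names of the homeostasis matrix came from the 5-FU feature list, whose row order was checked: log counts correlated at 0.919 in the given order and at 0.394 or less when shifted, and all 160 windows of 200 rows with a correlation (of 162) were best unshifted.

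Hashtags were classified with HTODemux in Seurat 5.3.0, and cells with 1 tag were kept, as in the study. This left out 6283 homeostasis and 3290 5-FU cells called negative for both tags, whose genotype is unknown. It also left out 1441 and 434 doublets of both genotypes, and doublets within a genotype were not called. Cells in the outer 2% of UMIs, genes or mitochondrial share at either end, and cells with at least 2 UMIs of 9 lineage genes, were removed. The study's removal of lineage-primed stem cells was not repeated. Clusters were made per library with scanpy 1.11.5 without the 7 genes, the pathway list, the phase lists and Sin3b, and named from markers at least 1.5-fold higher in the cluster. Phases and signature subsets were called on cells thinned to 4000 UMIs, and 710 homeostasis and 682 5-FU cells below that depth had no phase.

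UMIs were summed per pool. Ratios used 0.5 added UMIs and exact binomial intervals of 95%, levels exact Poisson intervals. PCR duplicates being removed by UMI, these cover counting error only. Pools were tested with edgeR 4.0.16 in R 4.3.3 (genotype and condition, filterByExpr, TMM) over all genes, and p-values measure only the spread between 4 pools. Counts simulated for these pools with 200 genes changed 2-fold gave back 198 of them over all kept cells (17330 genes, 6 others called), 197 in LT-HSC-like cells (14186 genes, 9 others) and 194 in other cells (16696 genes, 8 others). These counts were drawn with a fixed dispersion, and the changed genes were picked among well-counted ones. Recovery of 2-fold changes does not show that changes as small as those of the genes described here would be called. DESeq2 1.42.0, other scaling, filters, hashtag rule, clustering, subset and phase definitions were alternatives.

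The 7 genes and all lists were chosen with earlier results of these data known. The text names the 7, those of 38 pathway genes at least 0.5 apart on the log2 scale in the same direction in both libraries, the 3 genes most like each of the 7 among genes with 200 or more UMIs in both libraries, and Sin3b. The values of 1 pathway gene are not reported here. Promoter windows came from RefSeq, and protein sequences were not used here.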

Additional observations from a re-analysis of the deposited data

Results flagged for a closer look

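Dnmt1 and Uhrf1 stood out because their ratios of Sin3B-/- over Sin3B+/+ over all kept cells had opposite signs in the libraries, with intervals that left out 0 in each. Dnmt1 was at -0.10 on the log2 scale at homeostasis and at 0.20 after 5-FU. Uhrf1 was at -0.15 at homeostasis and at 0.17 after 5-FU. The difference between the libraries was not tested, since each holds 1 pool per genotype. LT-HSC-like cells, in which both genes are low, were 14.4% of Sin3B+/+ and 34.9% of Sin3B-/- cells at homeostasis and 20.9% and 32.6% after 5-FU. With both genotypes weighted to the same shares of class and phase, Dnmt1 was at 0.13 at homeostasis and 0.14 after 5-FU, and Uhrf1 at 0.20 and 0.07.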

How the results depend on the processing

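The count of the 7 genes called between genotypes was 0 in every setting run (of 6 with an adjusted p in LT-HSC-like cells under DESeq2). Their smallest adjusted p lay between 0.126 and 1.0 over 8 alternatives for all kept cells, 0.138 and 1.0 over 11 for LT-HSC-like cells, and 0.0681 and 0.832 over 11 for other cells, while the share of all genes called moved by over 1.5 times (224 genes against 95 to 966 over all kept cells, 154 against 16 to 524 in LT-HSC-like and 335 against 105 to 633 in other cells). Leaving out a condition leaves no residual degree of freedom, and the ratios within each library stand for it. The count of genes 0.5 or more apart between genotypes in LT-HSC-like cells was 1 in place of 0 at homeostasis when 80% of a cell's hashtag UMIs had to be of 1 tag (Uhrf1, -0.70), and 1 in place of 0 after 5-FU with markers raised 2-fold (Tet1, -0.52). Between LT-HSC-like and other cells it was 1, 0, 1 and 1 with G1 cells only, in place of 2, 2, 2 and 3. Other settings brought further genes past 0.5 there: Dnmt3b after 5-FU without the quality filter (-0.69 in Sin3B+/+ and -0.68 in Sin3B-/- cells), Tet3 in Sin3B-/- cells at homeostasis with the 80% rule (-0.64) and Tet1 in Sin3B+/+ cells after 5-FU with markers raised 2-fold (0.51). Between S phase and G1 in Sin3B-/- cells at homeostasis it was 2 with the 80% rule in place of 4. In LT-HSC-like cells only, where few cells are called S phase, 9 of 28 values between S phase and G1 turned, of which 3 had been 0.5 or more apart: Tet1 at 0.33 and Tet2 at 0.42 in Sin3B-/- cells at homeostasis, and Tet2 at 0.51 in Sin3B+/+ cells after 5-FU. In Sin3B-/- cells after 5-FU, Tet2 turned to 0.35, Dnmt3a to 0.39 and Dnmt3b to -0.87. The cause of these moves was not tested.

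As shares of UMIs, Tet1, Tet2 and Tet3 were lower in Sin3B-/- cells after 5-FU in all settings run, in LT-HSC-like cells from -0.52 to -0.24, -0.37 to -0.05 and -0.47 to -0.18 over 11 settings, the weakest for Tet2 being without the lineage filter. Of all genotype ratios 365 of 420 stayed within the interval reported and 55 moved beyond it. The 80% hashtag rule turned the sign of 15 of 42, among them Dnmt1, Dnmt3a, Tet1, Tet2 and Tet3 in other cells at homeostasis. The number of LT-HSC-like cells depends on the rule, from 458 to 1869 Sin3B+/+ cells at homeostasis and 158 to 1149 after 5-FU. Settings without the shallow cluster and with G1 cells only between genotypes were chosen after seeing the data. No paired analysis was possible because the pools carry no replicate numbers shared between genotypes; the library that both genotypes share is already a term of the edgeR fit, as the condition. Depth limits Uhrf1 in LT-HSC-like cells, with 37 to 79 UMIs a pool and 6 to 16 in the cells called S phase.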
